A study of Danio rerio with 9 samples.

Results

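The liver genes described here are 7: a2ml, agt, ambp, gc, ces3, bhmt and fbp1b. They were taken by name, as every row of the deposited tables whose gene name equals one of them, from 12126 gene names that have a row of their own. All 7 were found in each of the 3 tables, on 8 rows per table because gc has a pair of rows, and no row pooled a member with other names. All 8 rows reached 10 FPKM (fragments scaled by transcript length and by the total mapped) in each table, so no member was lost to low expression.

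The animals were whole zebrafish of the AB strain, collected at 96 h after fertilization and pooled by 15 into each sample. The 3 groups, of 3 samples each, received a solvent control of 0.01% DMSO, 16 µM perfluorobutane sulfonate (PFBS, a short-chain fluorinated surfactant) or 32 µM PFBS. All groups were dechorionated by hand at 24 h, kept in 0.3x Danieau's medium with the exposure renewed every 24 h, and came from 3 repeats of the experiment that each gave 1 sample per group. The labels give a temperature of 37 °C, unusually warm for this species, and do not say which solvent level the PFBS groups received or which samples share an experiment.

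By 96 h the zebrafish liver is formed and secretes most proteins of the blood plasma, as the mammalian liver does. Its hepatocytes also run gluconeogenesis, which makes glucose from smaller molecules, and the methionine cycle, which supplies methyl groups. Transcription of these genes in hepatocytes depends on a small set of shared factors, among them those of the HNF1, HNF4, FOXA and C/EBP families. Some plasma protein genes are also transcribed in the yolk syncytial layer, which feeds the early larva.

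Each table gives 1 level per group, so no spread between samples and no standard error can be given, and the depth per sample is unknown. The verbs rose and fell are kept for rows with a deposited q-value below 0.05. Ratios are log2 ratios, negative where the second group was lower. RNA came from whole animals, so fewer hepatocytes, less RNA per hepatocyte and less RNA from other tissues cannot be told apart in any value below.

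In control larvae, bhmt was by far the most abundant of the 7. Its level was 1031 FPKM in the control of the authors' deposited table for 32 µM, rank 111 of 11685 named genes. A middle group followed in the same table, with a2ml at 105.4, fbp1b at 96.3 and ambp at 87.4 FPKM. The lower group was agt at 48.5, ces3 at 42.2 and the rows of gc at 30.7 and 26.2 FPKM in the authors' deposited table. Whether neighbours within the middle or the lower group differ in level beyond the spread of the samples could not be tested. The levels of one group differed between the authors' deposited tables by at most 0.04 on the log2 scale over all member rows, and that largest gap was on the row of a2ml.

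**Figure D1:**
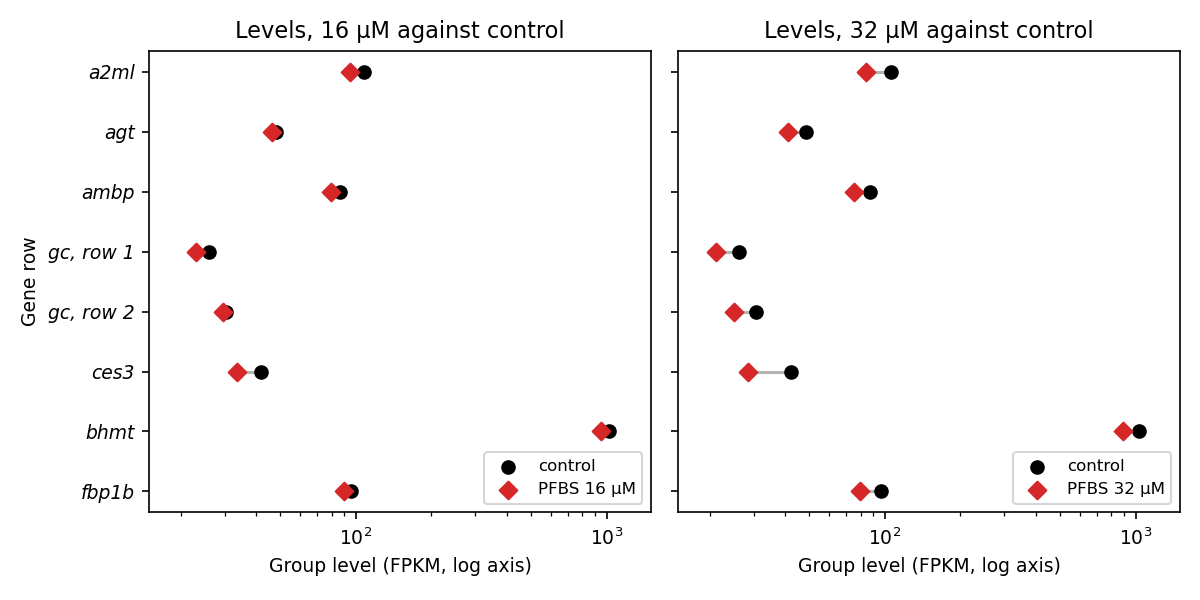
Levels of the 8 rows in the control (black circles) and PFBS groups (red diamonds) on a log FPKM axis, with 16 µM on the left and 32 µM on the right; each point is the authors' single value for a group, with no error available. Every PFBS point lies to the left of its control, from bhmt at 1031 FPKM in the control on the right down to gc; row 1 of gc is the one at the lower coordinates.

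At 32 µM PFBS, 6 of the 7 genes fell and none rose. The background was 1.83% of 26901 rows called in either direction, and 1.94% of the 6191 named genes of 10 FPKM or more called lower. The median ratio of the 7 genes was -0.27, against -0.03 for those 6191 genes. All 8 rows had a ratio below 0, as had 61.2% of the named genes of 10 FPKM or more. These 7 genes were put together with earlier results of the same tables known, so the counts describe them and are no independent evidence of a direction.

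The carboxylesterase gene ces3, whose product belongs to a family that cleaves ester bonds in lipids and foreign compounds, had the largest fall of the 7. In the authors' deposited table it went from 42.2 FPKM in the control to 28.4 FPKM at 32 µM, or 67.4% of the control level (ratio -0.57, q = 0.00521). The row lies on chromosome 18, 17077437 to 17085479, of danRer7. Only 3 of the 6191 named genes of 10 FPKM or more had a lower ratio at 32 µM, ces3 being the fourth from the bottom.

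The plasma protein genes a2ml, agt and ambp fell by smaller amounts. The gene a2ml encodes a relative of alpha-2-macroglobulin, which traps proteases in plasma. It went from 105.4 to 83.9 FPKM at 32 µM in the authors' deposited table, or 80.1% of control (ratio -0.32, q = 0.00521; chromosome 15, 20054683 to 20192019). The gene agt encodes angiotensinogen, the precursor that renin cuts to start the angiotensin cascade. Its level was 48.5 FPKM in the control and 41.1 FPKM at 32 µM in the authors' deposited table, or 85.3% of control (ratio -0.23, q = 0.00521; chromosome 13, 24212342 to 24219764). The gene ambp encodes a precursor that is split into alpha-1-microglobulin, a haem-binding carrier, and bikunin, a protease inhibitor. It had 87.4 FPKM in the control and 75.1 FPKM at 32 µM in the authors' deposited table (ratio -0.23, q = 0.00521; chromosome 10, 10767459 to 10789347).

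For gc, which encodes the plasma carrier of vitamin D, the call depends on the row. The row at chromosome 5, 47282894 to 47303149, fell from 26.2 to 21.3 FPKM at 32 µM, per the authors' deposited table (ratio -0.30, q = 0.0125). The row at 47326799 to 47335942 went from 30.7 to 24.9 FPKM and did not pass the test, at a ratio of -0.30 as well in the authors' deposited table (q = 0.141). The latter is the more abundant and stands for gc in the count of 6. With the former in its place all 7 genes fell.

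The metabolic genes bhmt and fbp1b fell as well. The gene bhmt encodes betaine-homocysteine methyltransferase, which remakes methionine from homocysteine with betaine as methyl donor. It went from 1031 to 891 FPKM at 32 µM in the authors' deposited table, or 86.5% of control (ratio -0.21, q = 0.00521; chromosome 21, 286519 to 291612). This was the smallest ratio in size among the 8 rows, at the highest level. Of 166 named genes within 1 log2 unit of its control level, 3, bhmt included, had a ratio as low or lower. The gene fbp1b encodes fructose-1,6-bisphosphatase, a regulated enzyme of gluconeogenesis. Its level was 96.3 FPKM in the control and 79.9 FPKM at 32 µM in the authors' deposited table (ratio -0.27, q = 0.00521; chromosome 5, 37076083 to 37080614).

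The same count was made for the other members. Within 1 log2 unit of the control level, the number with a ratio as low or lower at 32 µM, the member included, was 9 of 963 for a2ml, 18 of 1067 for fbp1b and 30 of 1185 for ambp. It was 54 of 2140 for agt, 31 of 3251 for the row of gc at the higher level and 3 of 2465 for ces3. The median ratios of these neighbourhoods ran from -0.03 to about -0.05. Like the rank of ces3 and the count for bhmt, these numbers only describe the members. The genes were put together with earlier results of the same data known. The q-value of 0.00521 shared by 6 members is the smallest in that table and is shared by 258 rows, so members cannot be ranked by it.

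**Figure D2:**
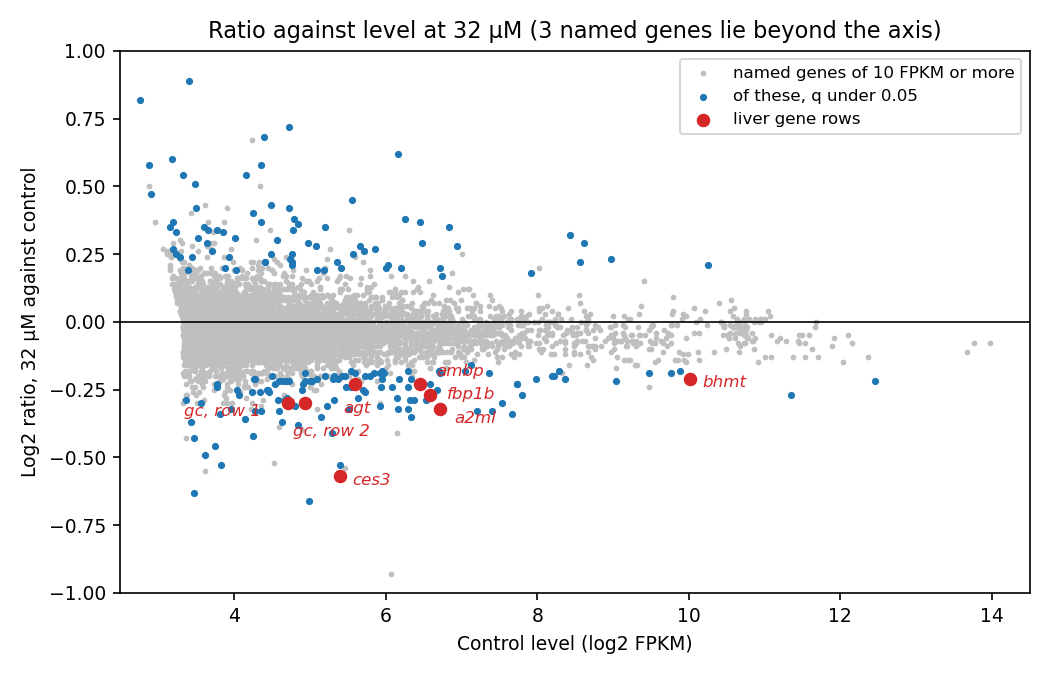
Log2 ratio of 32 µM against control (vertical axis) against the control level (log2 FPKM) for 6191 named genes of 10 FPKM or more (grey), the 196 of them with a q-value under 0.05 (blue) and the 8 liver gene rows (red). The rows sit along the lower edge of the cloud between -0.21 and -0.32, with ces3 apart at -0.57; 3 named genes lie beyond the plotted range.

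At 16 µM PFBS ces3 alone of the 7 genes fell. The background was 0.260% of 29280 rows called, and 0.309% of 6141 named genes of 10 FPKM or more called lower. The level of ces3 was 41.9 FPKM in that control and 33.6 FPKM at 16 µM, or 80.1% of control, in the authors' deposited table (ratio -0.32, q = 0.0219). That q-value is again the smallest of its table, shared by 67 of the 76 called rows.

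None of the other 7 rows passed the test at 16 µM, each with q = 0.998. The plasma protein rows had ratios of -0.19 for a2ml (107.6 to 94.4 FPKM), -0.12 for ambp (86.8 to 79.9 FPKM) and -0.06 for agt (48.2 to 46.2 FPKM) in the authors' deposited table. The rows of gc had ratios of -0.17 (26.0 to 22.9 FPKM) and -0.04 (30.5 to 29.6 FPKM) at 16 µM in the authors' deposited table. The metabolic genes had ratios of -0.11 for bhmt (1024 to 949 FPKM) and -0.09 for fbp1b (95.7 to 89.9 FPKM) in the authors' deposited table. All 8 rows had a ratio below 0, against 59.8% of named genes of 10 FPKM or more. The median of the 7 genes was -0.11, against -0.02 over those named genes.

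The third table set 32 µM directly against 16 µM, and no member passed its test. The background was 0.329% of 29163 rows called, and 0.227% of 6177 named genes of 10 FPKM or more called lower. The member nearest to the threshold was ces3, with 34.1 FPKM at 16 µM and 28.6 FPKM at 32 µM in the authors' deposited table (ratio -0.24, q = 0.0972). Next were fbp1b at -0.18 (q = 0.537) and agt at -0.17 (q = 0.772) in the authors' deposited table. The other 5 rows, each with q = 0.999, had ratios of -0.26 and -0.12 for gc, -0.11 for a2ml and -0.10 for both ambp and bhmt in the authors' deposited table. A ratio below 0 was found on all 8 rows and in 51.5% of named genes of 10 FPKM or more. The median of the 7 genes was -0.17, against -0.01 over those named genes.

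The 3 tables draw on the same 3 groups, so their ratios are not separate evidence. For ces3 the ratio was -0.32 at 16 µM and -0.57 at 32 µM, and the step between the doses was not called. For the other 5 genes that fell at 32 µM, the lack of a call at 16 µM does not show that the doses differ, as the direct comparison of the doses called none of them.

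**Figure D3:**
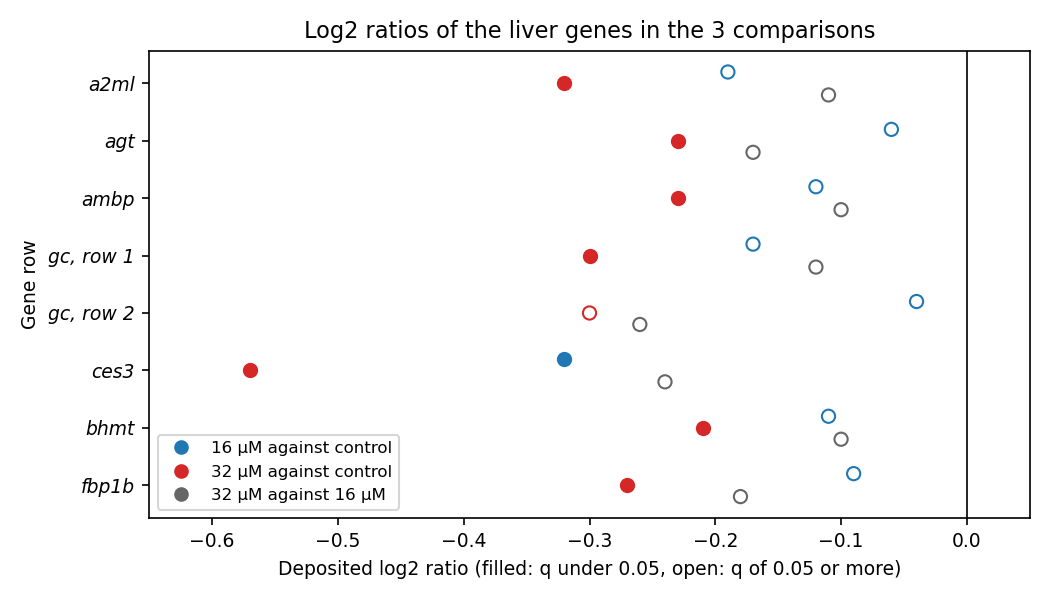
Deposited log2 ratios (horizontal axis) of the 8 rows for 16 µM against control (blue), 32 µM against control (red) and 32 against 16 µM (grey), filled where the q-value was under 0.05. The red points lie between -0.57 and -0.21 and all but one, a row of gc, are filled; ces3 carries the one filled blue point, and no grey point is filled.

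The genomic neighbours of some members are given here, and an effect of position was not tested. The nearest named row to ces3 is another carboxylesterase gene, ces2 (current RefSeq symbol ces2a), 915 bases away at chromosome 18, 17067448 to 17076522, of danRer7. It also fell at 32 µM, from 147 to 117 FPKM in the authors' deposited table (ratio -0.33, q = 0.00521), and had a ratio of -0.19 at 16 µM without passing the test (q = 0.674). On the other side of ces3, at 2217 bases, zgc:91860 had a ratio of 0.03 at 32 µM in the authors' deposited table (q = 0.898). Close neighbours of other members were not called either: cog2, 195 bases from agt, had -0.17 (q = 0.415), and erlin2, 1020 bases from fbp1b, had 0.04 (q = 0.876) at 32 µM in the authors' deposited table.

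The row of a2ml carries an uncertainty of its own. Its locus differs between the tables and is shared with unnamed rows, 5 in the table for 16 µM, 3 in that for 32 µM and 4 in that for the doses, and RefSeq lists several alpha-2-macroglobulin genes on chromosome 15. Reads of near-identical copies could have been divided among these rows. The 3 unnamed rows of the 32 µM table had ratios of -0.43 (50.2 to 37.5 FPKM, q = 0.785), -0.25 (28.8 to 24.3 FPKM, q = 0.844) and -0.09 (10.6 to 9.92 FPKM, q = 0.992) in the authors' deposited table, none of them called.

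Wider gene lists place the 7 genes among other products of the liver. The lists were also chosen with earlier results of these data known, so their counts are no independent evidence. As background for the list counts at 32 µM, 1.83% of 26901 rows were called in either direction. Of the 6191 named genes of 10 FPKM or more, 1.94% were called lower, and some listed genes lie below that level. Of 29 measured genes for plasma proteins and protease inhibitors, 10 fell and none rose at 32 µM, with a list median of -0.15; 4 of the 29 are members, and of the other 25, 7 fell (median -0.13). In the authors' deposited table the falls outside the members were those of itih2 (-0.20, q = 0.00918), which encodes a heavy chain that is linked to bikunin, fgg (-0.19, q = 0.0125), a fibrinogen chain, and plg (-0.20, q = 0.0215), the precursor of plasmin. They also included the vitronectin genes vtna (-0.21, q = 0.0215) and vtnb (-0.20, q = 0.0272), tfa (-0.19, q = 0.0366), which encodes the iron carrier transferrin, and f2 (-0.19, q = 0.0476), which encodes prothrombin, in the authors' deposited table. Of the 10 that fell, 9 had ratios between -0.23 and -0.19, and a2ml was the exception. Of the 29 genes, 23 had a ratio below 0 and 6 above 0, and 19 did not pass the test. These 19 included igfbp1b (-0.23), cp (-0.16) and the other fibrinogen chains, fga (-0.15) and fgb (-0.12). Also among them was rbp4, the retinol carrier and the most abundant of the list at 1710 FPKM in the control (-0.08, q = 0.657). The uncalled values above 0 included ttr, the thyroid hormone carrier (0.10, q = 0.784), and igfbp1a (0.19, q = 0.179) at 32 µM in the authors' deposited table.

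The lists around the metabolic members were smaller. In the methionine and betaine cycle 2 of 17 genes fell at 32 µM and none rose (list median -0.09), or 1 of 16 without bhmt (median -0.08). Besides bhmt this was mat2aa, which makes S-adenosylmethionine, at 78.3 to 66.3 FPKM (-0.24, q = 0.00521) in the authors' deposited table. The related mat1a, the liver form of that enzyme in mammals, had -0.07 (q = 0.596), and ahcy, which splits S-adenosylhomocysteine into homocysteine and adenosine, -0.16 (q = 0.0887) in the authors' deposited table. In gluconeogenesis and glycogen metabolism 2 of 20 genes fell and 1 rose (list median -0.02), or 1 lower and 1 higher of 19 without fbp1b (median -0.02). These were fbp1b and tat, a tyrosine aminotransferase (3.41 to 2.41 FPKM, -0.50, q = 0.0125), both lower, and pck1, which catalyses an earlier step of gluconeogenesis than fbp1b (34.3 to 39.1 FPKM, 0.19, q = 0.0272), higher in the authors' deposited table. The other fructose bisphosphatase genes, fbp1a at -0.14 (q = 0.334) and fbp2 at -0.06 (q = 0.786), did not pass the test in the authors' deposited table. Of 23 genes for amino acid breakdown in the liver, tat alone fell and none rose (list median -0.03). Of 5 measured esterase and hydrolase genes, ces3 and ces2 fell, and the median of the 5 was 0.01. Without ces3, 1 of 4 fell (median 0.105), and the highest ratio, 0.50 for faah, was not called. The lowest control level in this list was 1.07 FPKM, and faah lay below 10 FPKM in both groups.

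The systems that agt and gc serve showed no other call. Of 8 measured genes of the renin and angiotensin system agt alone fell at 32 µM and none rose (list median 0.04). Of 4 measured vitamin D genes none was called on the row counted (list median -0.02), and cyp24a1, which inactivates vitamin D, had 0.03 (q = 0.953) in the authors' deposited table. Both lists were thinly covered, with 15 and 13 genes listed. Several other lists were also measured only in part at 32 µM. These were 5 of 12 esterase and hydrolase names, 4 of 8 for the yolk syncytial layer and 10 of 19 for the exocrine pancreas. The 12 names hold ces2 under both its older and its current symbol. Coverage was 9 of 14 for hepatocyte markers and 29 of 41 for plasma proteins and protease inhibitors.

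Among 16 transcription factor genes of hepatocytes, 1 fell and none rose at 32 µM, with a list median of -0.01. The gene that fell was nr0b2a, whose mammalian counterpart SHP represses bile acid synthesis, from 5.28 to 4.20 FPKM in the authors' deposited table (-0.33, q = 0.0158). The factors hnf4a (0.07, q = 0.880), cebpa (-0.06, q = 0.780) and foxa3 (0.01, q = 0.980) did not pass the test in the authors' deposited table. The lowest ratio of the list, hhex at -0.46, had q = 0.722 in the authors' deposited table.

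Hepatocyte markers were present in every group, with none of the 9 measured at 0. Of these 9 genes 2 fell at 32 µM, tfa and fgg, and none rose, with a list median of -0.12 (-0.10 without gc). Their summed level was 3126 FPKM in the control and 2896 FPKM at 32 µM. That sum rests largely on rbp4, which did not pass the test, and on tfa, at 873 and 765 FPKM in these groups. This list is no separate set, as 7 of the 9 genes also stand in the plasma protein list. The fatty acid binding protein gene fabp10a, the marker most used for zebrafish liver, had 198 FPKM in the control and 201 FPKM at 32 µM in the authors' deposited table (0.03, q = 0.935). The bile acid synthesis gene cyp7a1a had 0.13 (q = 0.403) in the authors' deposited table.

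Markers of other organs also differed between 32 µM and the control, and their part in the falls of the liver genes was not tested. As background, 196 of the 6191 named genes of 10 FPKM or more were called at 32 µM, 120 of them lower and the rest higher. The organ lists have no such minimum, and the called genes slc6a19b and slc20a1a lie below 10 FPKM. Over all 26901 rows, 1.83% were called. Exocrine pancreas genes rose at 32 µM in 8 of 10 cases and none fell (median 0.29; summed level 934 FPKM in the control and 1147 FPKM at 32 µM), led by ela3l (0.62), amy2a (0.58), ela2 (0.35) and ctrl (0.29) in the authors' deposited table, each with q = 0.00521. Intestine genes rose in 3 of 10 cases and none fell (median 0.20, summed level 751 to 869 FPKM). These were fabp2 (0.23, q = 0.00521), vil1 (0.20, q = 0.00918) and slc6a19b (0.35, q = 0.0344) in the authors' deposited table. Most of the summed level of the intestine list was fabp2, at 505 FPKM in the control and 592 FPKM at 32 µM. For the yolk syncytial layer none of 4 measured genes was called (median -0.08, summed level 791 to 719 FPKM). In the authors' deposited table apobb.1 went from 322 to 282 FPKM (ratio -0.19, q = 0.111). Most of the summed level of the yolk syncytial layer list was apobb.1 and apoea (ratio -0.10, not called). This list is not separate from the liver lists, as hnf4a also stands among the hepatocyte transcription factors. None of 7 bile duct genes was called (median -0.05; 341 to 320 FPKM), with krt18 at -0.12 (q = 0.265) in the authors' deposited table. Of 10 pronephros genes 1 rose, slc20a1a (0.28, q = 0.0158) in the authors' deposited table, with a list median of 0.05 and summed levels of 121 and 127 FPKM. No measured gene of these lists was at 0 in either group.

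In the other comparisons few genes of these lists were called, and few rows were called at all. The share over all rows was 0.260% of 29280 at 16 µM and 0.329% of 29163 between the doses. At 16 µM, 12 of the 14 lists besides the 7 genes had no call, the exceptions being ces3 itself and amy2a (0.40, q = 0.0219) in the authors' deposited table. Taking from each list without a call the gene with the smallest q-value, these were cp, the copper carrier ceruloplasmin (-0.21, q = 0.480), cbsb (-0.20, q = 0.687), g6pca.2 (-0.23, q = 0.939), nr0b2a (-0.27, q = 0.801), fabp6 (0.31, q = 0.202) and ctslb (1.01 to 0.306 FPKM, -1.74, q = 0.674) in the authors' deposited table. In the other 6 lists without a call the smallest q-value was 0.998. Between the doses 13 of 14 lists had no call, the exocrine pancreas genes ela3l (0.49) and ela2 (0.29) being higher in the authors' deposited table, each with q = 0.0194. Besides the members given above, igfbp1a (0.21, q = 0.563), agxtb (0.19, q = 0.605), cyp24a1 (0.30, q = 0.621) and slc12a3 (0.27, q = 0.652) had the smallest q-value of their own lists in the authors' deposited table. In 6 further lists the smallest q-value was 0.999.

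Genes with the pair of ratios most like a member's were looked up among named genes within 2 log2 units of its control level, over the 3 groups. For ces3, of 5431 genes, the nearest was nr1d2b, a clock repressor gene, with -0.35 at 16 µM (q = 0.0219) and -0.53 at 32 µM (q = 0.00521) in the authors' deposited tables, a distance of 0.05 on the log2 scale. The next were cry-dash, a cryptochrome gene (-0.29 and -0.49), and mir363 (-0.25 and -0.52, q = 0.899 at 32 µM), at distances of 0.09 each. Neither passed the test at 16 µM (q = 0.253 for cry-dash and 0.998 for mir363). For a2ml, of 2314 genes, the nearest was ces2 (-0.19 and -0.33), at a distance of 0.01. It was followed by tspan36 (-0.20 and -0.31) and paics, a purine synthesis gene (-0.21 and -0.34), all 3 with q = 0.00521 at 32 µM in the authors' deposited table. At 16 µM none of these passed the test (q = 0.674 for ces2, 0.801 for tspan36 and 0.706 for paics), nor did a2ml. Ratios are rounded to 0.01, so distances this small set no firm order.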

How the data were processed

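RNA was enriched for polyadenylated transcripts and made into strand-specific paired-end libraries, per the labels' protocols. The authors deposited 3 tables, 1 per pair of groups, with group levels as log2 FPKM, a log2 ratio and a q-value per row, per the file headers; a log2 value of -10 stands for 0. Cufflinks and danRer7 are named per the submitters' processing notes; for the aligner, the annotation and the statistical test, nothing is given in the sources used here. Coordinates are as the tables give them. Loci differ between tables, so each was read as its own assembly.

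Here, rows were matched by name with Python 3.11.15 and pandas 2.3.3, keeping for list counts 1 row per name, the one with the highest mean level. FPKM were recomputed from log2 values rounded to 0.01. Of the 7 members, 6 are current RefSeq symbols of GRCz12tu (a2ml is not); older list symbols were matched through its synonyms. Unadjusted p-values were recovered by undoing the Benjamini-Hochberg adjustment, as upper bounds, for re-adjustment only; the step was tested on simulated data. No test was run over samples, as 1 value per group allows none.

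The members and the 14 further lists were chosen with earlier results of these data known. Named list genes are, per comparison, up to 4 called with the smallest q, or the 1 nearest to the threshold where none was called; other names were chosen after their values were seen, for their role beside a member.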

Additional observations from a re-analysis of the deposited data

How the results depend on the processing

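The count of members that fell at 32 µM, 6, lay between 5 and 7 under all 6 alternatives: q-value limits of 0.01 and 0.1, p-values adjusted again over rows of 5 FPKM or more, either row of gc, and centred ratios with a minimum drop of 0.2. The more abundant row of gc is the one already counted, so at 32 µM that alternative repeats the main count. At 16 µM the count of 1 became 0 with a q-value under 0.01, because no row of that table has a q-value below 0.0219. Between the doses the count of 0 became 1, ces3, with a q-value under 0.1; the other 5 alternatives left each of these counts as it was. The median ratio of the members stayed between -0.29 and -0.24 at 32 µM and between -0.12 and -0.09 at 16 µM with a pseudocount of 1 FPKM, a minimum of 10 FPKM, centring and each member left out. All 8 rows reached 10 FPKM, so that minimum removed none of them and could not move the median. Of 72 alternative ratios of single rows none changed sign, and 1 moved by more than 1.5 times, the row of gc at the higher level at 16 µM, from -0.04 to -0.02 when centred. A pseudocount cannot change the sign of a ratio. The ratios formed from the other comparisons rest on levels of the same groups, which differed by at most 0.04 on the log2 scale. Only centring could readily have changed a sign, so most of the 72 check little. No paired analysis was possible because the tables hold 1 value per group, and leaving out each replicate was not run for the same reason. With no depth or spread per sample, the precision of single ratios is unknown.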
